A study of Homo sapiens with 15 samples.

Results

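A549 cells exposed to airborne fine particulate matter (PM2.5) were read here through 9 long noncoding RNA genes: the nuclear RNAs NEAT1, MALAT1 and TUG1, and the small nucleolar RNA (snoRNA) hosts GAS5, SNHG1, SNHG8, SNHG12, SNHG15 and ZFAS1. They are the rows of the deposited table that carry these 9 gene names, of 58735 genes in all, and the rule itself uses no measured value. The names were, however, chosen with earlier results of these data known, so the 9 are not an unselected set. All 9 had enough reads to be tested, so none was lost to the filter on low counts. A549 is an established lung adenocarcinoma cell line. The exposed groups, coded CDSUM, CDWIN, CQSUM and CQWIN, received PM2.5 at 100 µg/mL for 24 h, and the controls received an equal volume of the solvent dimethyl sulfoxide (DMSO). Each of the 5 groups had 3 libraries, the sources used here do not spell out the 4 codes, and all cells carry the background of a single tumour line.

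Long noncoding RNAs are transcripts that are not translated into a known protein. NEAT1 is the scaffold of paraspeckles, nuclear bodies that hold RNA-binding proteins, and MALAT1 gathers in nuclear speckles, where splicing factors are stored. The snoRNA hosts carry snoRNAs in their introns, and snoRNAs guide the methylation and pseudouridylation of ribosomal RNA. After splicing the snoRNA is trimmed out of the intron, while the joined host exons are often exported and destroyed by nonsense-mediated decay when ribosomes read their short open reading frames. Many host transcripts begin with a run of pyrimidines, the 5′ terminal oligopyrimidine tract that ribosomal protein mRNAs share.

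The start regions of 4 hosts are shown because a pyrimidine run covers their annotated start base. Each window spans 50 bases before and 50 bases from the annotated start (RefSeq, GRCh38.p14), 5′ to 3′ on the gene's strand, with the pyrimidine run over the start base in capitals.
SNHG8: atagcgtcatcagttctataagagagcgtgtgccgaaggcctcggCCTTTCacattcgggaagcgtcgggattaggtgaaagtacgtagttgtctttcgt
ZFAS1: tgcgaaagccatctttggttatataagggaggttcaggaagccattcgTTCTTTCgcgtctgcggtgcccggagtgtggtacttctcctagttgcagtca
SNHG12: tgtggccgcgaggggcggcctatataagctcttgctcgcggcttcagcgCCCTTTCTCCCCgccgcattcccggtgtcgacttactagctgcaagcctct
SNHG1: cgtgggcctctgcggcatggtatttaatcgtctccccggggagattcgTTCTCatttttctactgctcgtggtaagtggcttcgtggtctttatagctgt
These windows lie at chr4:118278712-118278811 (+) for SNHG8, chr20:49278592-49278691 (+) for ZFAS1, chr1:28581824-28581923 (−) for SNHG12 and chr11:62855836-62855935 (−) for SNHG1. The runs are 6, 7, 12 and 5 bases long in SNHG8, ZFAS1, SNHG12 and SNHG1, and parts of them lie before the start. In SNHG8 the start base is the last base of the run, so these letters do not show a tract at the beginning of its transcript, and neither SNHG8 nor SNHG1 has the stricter form below. Start windows were found for 7 of the 9 genes, 8 windows in all because MALAT1 has a pair, and a run of at least 5 bases over the start was present in 5 genes, against 9.6% of 35116 windows. Besides the 4 hosts it was MALAT1, not a host, with 11 bases, while the host GAS5 had no run over its start. RefSeq starts were not always those of the counted genes. The ZFAS1 start was 49278642 and its gene began at 49278178, and in SNHG12 these were 28581873 and 28583132. The stricter form, a start base C followed by at least 4 pyrimidines, was met by SNHG12 and ZFAS1 and by 4.07% of windows. GCGTG, the core letters of the site read by the aryl hydrocarbon receptor, stood on either strand of the 300-base windows of 6 of the 7 genes, and in 36.5% of all windows. TGACNNNGC, the core of the antioxidant response element, was present only in a MALAT1 window (13.3% of all windows), the E-box CACGTG only in that of TUG1 (7.26%), and TATAAA in those of MALAT1 and SNHG1 (11.5%), again on either strand. A match of letters is a description and not evidence of binding.

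The snoRNAs inside SNHG8 and ZFAS1 are shown because the host and its snoRNA are separate products of the same transcript, and the table lists them as separate genes. In SNORA24 the capitals mark the ACA box, and in the SNORD12 family they mark box C (TGATGA) and box D (CTGA). Sequences are from GENCODE 29 transcripts.
SNORA24: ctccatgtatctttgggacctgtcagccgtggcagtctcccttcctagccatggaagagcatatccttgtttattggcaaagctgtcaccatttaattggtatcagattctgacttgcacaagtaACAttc
SNORD12: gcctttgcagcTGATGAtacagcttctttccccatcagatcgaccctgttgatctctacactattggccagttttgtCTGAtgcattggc
SNORD12B: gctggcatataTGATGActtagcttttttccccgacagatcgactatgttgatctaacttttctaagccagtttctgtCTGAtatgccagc
SNORD12C: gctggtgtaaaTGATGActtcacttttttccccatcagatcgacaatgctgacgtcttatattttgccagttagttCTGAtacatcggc
SNORA24 lies at chr4:118279190-118279320 (+) in SNHG8. In ZFAS1, SNORD12 lies at chr20:49280683-49280772 (+), SNORD12B at chr20:49280319-49280409 (+) and SNORD12C at chr20:49278940-49279028 (+). SNORA24 and SNORD12 were listed at 0 reads in all 15 libraries, whereas SNORD12B summed to 53 reads and SNORD12C to 26 over the 15 libraries. Every annotated snoRNA gene that overlapped a host exon was listed at 0. Whether reads over such a stretch were counted for the host or dropped is unknown, so nothing is said of the level of these snoRNAs.

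On GRCh38 the nuclear genes lie at chr11:65422774-65445540 (+) for NEAT1, chr11:65497688-65506516 (+) for MALAT1 and chr22:30969245-30979395 (+) for TUG1. Their exonic lengths are 22767, 8829 and 10151 bases. The hosts lie at chr1:173863900-173868882 (−) for GAS5, chr11:62851988-62855914 (−) for SNHG1, chr4:118278709-118279823 (+) for SNHG8, chr1:28578538-28583132 (−) for SNHG12, chr7:44983023-44986961 (−) for SNHG15 and chr20:49278178-49295738 (+) for ZFAS1. Their identifiers are ENSG00000245532 (NEAT1), ENSG00000251562 (MALAT1), ENSG00000253352 (TUG1), ENSG00000234741 (GAS5), ENSG00000255717 (SNHG1), ENSG00000269893 (SNHG8), ENSG00000197989 (SNHG12), ENSG00000232956 (SNHG15) and ENSG00000177410 (ZFAS1). Host lengths run from 923 bases in SNHG8 to 4266 in SNHG12. No source used here gives the strand setting, so reads of ZFAS1 could be shared with ZNFX1, whose exons it overlaps on the opposite strand and which had 441 to 1306 reads per library. GAS5 shares an exonic overlap with GAS5-AS1 (1 to 11 reads per library) and SNHG12 overlaps 8 bases of TRNAU1AP on the opposite strand. The antisense genes annotated within TUG1 and MALAT1 were listed at 0.

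Total counts ran from 17583532 reads in CQWIN 3 to 19216323 in CQSUM 1, and the 9 genes together took 0.0346% (DMSO 2) to 0.0526% (CQWIN 3) of them. Levels are given as CPM, reads of the gene scaled to a common library size with TMM, the trimmed mean of M-values, in the order of libraries 1, 2 and 3. Libraries stood apart within 4 groups: CQWIN 3 lay nearer to DMSO than to CQWIN 1 on the first principal component, and CDWIN 2, CQSUM 2 and DMSO 2 lay away from their group mates. The levels also depended on gene length to a different degree in each library. This length slope, the log2 change per doubling of gene length relative to the mean of all libraries, was −0.168 to −0.106 in CDSUM, −0.111 to −0.0297 in CDWIN, −0.0759 to 0.0773 in CQSUM, −0.0723 to 0.193 in CQWIN and 0.0472 to 0.168 in DMSO. Marker levels alone are CPM by total counts, without TMM, so their scale differs from that of the other levels. Gaps of the markers between groups were not read on the TMM scale. The cells are labelled as alveolar type II, but SFTPA1 and SFTPA2 were at 0 in all 15 libraries and SFTPB in 10, while ABCA3 was at 37.0 to 84.6 CPM. The 5 epithelial markers summed to 4140 to 6330 CPM in the PM2.5 libraries and to 9690 to 11800 CPM in DMSO. Among them KRT8 had 2800 to 8710 CPM over all libraries, but EPCAM only 0.817 to 5.51 and CDH1 6.51 to 31.7. The 9 alveolar type II markers summed to 39.4 to 76.2 CPM in PM2.5 and 82.8 to 87.4 CPM in DMSO. Of the leukocyte markers PTPRC and CD3E were at 0 throughout, but CD14 had 6.07 to 14.4 CPM over all 15 libraries. The 6 summed to 6.07 to 14.5 CPM in PM2.5 and 9.37 to 12.3 CPM in DMSO. The 5 fibroblast markers, with COL1A2 at 0 throughout and COL1A1 at 2.53 to 15.8 CPM, summed to 3.74 to 9.40 CPM in PM2.5 and 9.80 to 16.8 CPM in DMSO. The 4 endothelial markers summed to at most 1.11 CPM anywhere. The part of these marker differences in the results was not tested.

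Per unit of length, the shortest host was the most abundant of the 9 RNAs in every group. In fragments per kilobase and per sequencing depth (FPKM), SNHG8 averaged 73.4 ± 5.13 in CDSUM, 61.6 ± 2.88 in CDWIN, 50.4 ± 11.0 in CQSUM, 44.9 ± 20.6 in CQWIN and 30.4 ± 3.47 in DMSO (SD, n = 3 each). GAS5 was next, at 44.0 ± 0.154, 44.1 ± 2.33, 37.2 ± 5.16, 32.3 ± 9.31 and 21.7 ± 1.34 FPKM in the same groups, and its range overlapped that of SNHG8 in CQSUM and CQWIN. The order then differed between exposed and control cells. ZFAS1 held the third place in all 4 PM2.5 groups by its mean, at 27.6 ± 0.601 FPKM in CDSUM, though its range overlapped that of SNHG1 in CQWIN, whereas in DMSO it stood lower at 10.6 ± 1.08 FPKM, below SNHG1 at 13.1 ± 0.972 FPKM and with a range that overlapped that of SNHG15. NEAT1 and SNHG12 followed at 3.36 ± 0.419 and 2.65 ± 0.334 FPKM in CDSUM, and at 4.37 ± 1.04 and 3.08 ± 0.329 FPKM in DMSO. TUG1 and MALAT1 had the lowest means in every group, with ranges that overlapped each other and, in CQWIN, that of SNHG12, at 0.676 ± 0.0226 and 0.862 ± 0.214 FPKM in CDSUM and 2.03 ± 0.424 and 1.97 ± 0.724 FPKM in DMSO. The labels name a pair of library kits, and the part of RNA selection in the low levels of MALAT1 and TUG1 was not tested. The order of the 9 also rests on gene length, which counts all annotated exonic bases whichever transcripts were present. By CPM the order differed. GAS5 averaged above SNHG8 in CPM in every group, at 84.3 ± 1.99 and 30.0 ± 2.24 CPM in DMSO, where NEAT1 averaged 107 ± 28.5 CPM.

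**Figure D1:**
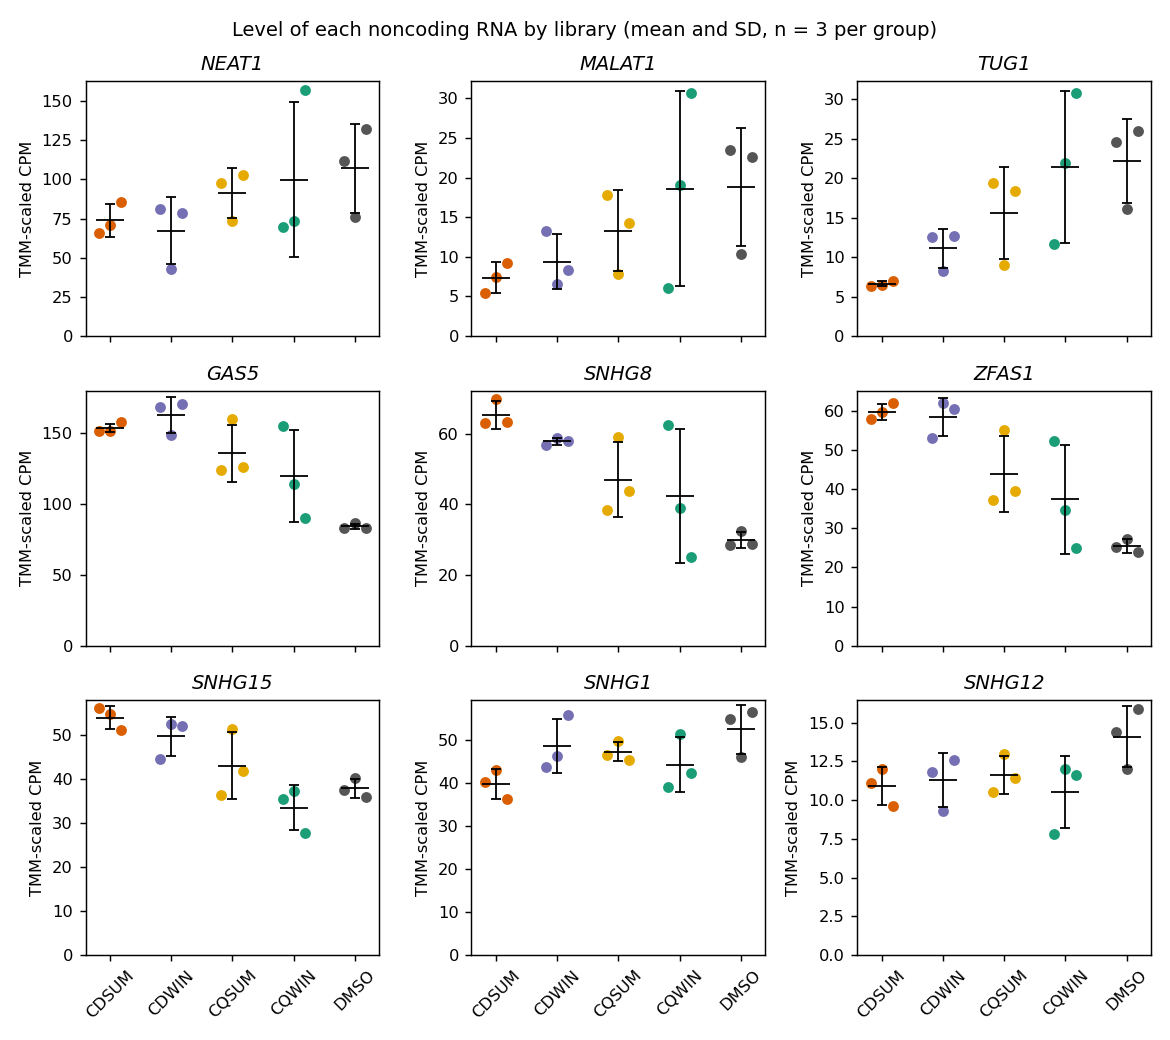
TMM-scaled CPM (y axis, from 0) of the 9 noncoding RNAs in each library of CDSUM, CDWIN, CQSUM, CQWIN and DMSO (x axis); points are libraries, bars the mean and SD of 3. TUG1 and MALAT1 sit low in CDSUM, while GAS5, SNHG8 and ZFAS1 sit above DMSO in most PM2.5 libraries, and the CQWIN libraries spread widely for most genes.

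The question of each comparison with DMSO was how the PM2.5 of that code changed expression in A549 cells. TUG1, an RNA found in both nucleus and cytoplasm, had the largest change of the 3 nuclear RNAs in CDSUM. It had 6.40, 6.48 and 7.01 CPM in CDSUM, 12.5, 8.27 and 12.7 CPM in CDWIN, 19.4, 8.94 and 18.4 CPM in CQSUM, 11.6, 21.9 and 30.8 CPM in CQWIN, and 24.5, 16.1 and 25.9 CPM in DMSO. All CDSUM and CDWIN libraries were below all DMSO libraries, whereas CQSUM and CQWIN overlapped DMSO. TUG1 was 3.34-fold lower in CDSUM (log2 fold change −1.74 ± 0.33 SE, edgeR adjusted p = 0.00075) and 1.99-fold lower in CDWIN (−0.99 ± 0.32, edgeR adjusted p = 0.0181). Neither CQSUM (−0.50 ± 0.31, edgeR adjusted p = 0.23) nor CQWIN (−0.05 ± 0.31, edgeR adjusted p = 0.928) passed the threshold of 0.05. In CDWIN the call was lost without CDWIN 2 (−0.82), DMSO 1 (−0.92) or DMSO 3 (−0.86). In CDSUM the value was −1.08 with the length trend of each library removed, and still called. In these bulk cultures a lower share of cells with the RNA and less RNA per cell cannot be told apart.

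MALAT1, the RNA of nuclear speckles, had 90 to 644 reads per library. It had 5.39, 7.46 and 9.23 CPM in CDSUM, 13.3, 6.63 and 8.28 CPM in CDWIN, 17.8, 7.81 and 14.3 CPM in CQSUM, 6.04, 19.1 and 30.7 CPM in CQWIN, and 23.5, 10.3 and 22.6 CPM in DMSO. CDSUM was below all DMSO libraries and the other 3 groups overlapped DMSO, where DMSO 2 was the low library. MALAT1 was 2.56-fold lower in CDSUM (−1.35 ± 0.45, edgeR adjusted p = 0.0205), and this was lost without CDSUM 1 (−1.17), CDSUM 2 (−1.36), DMSO 1 (−1.16) or DMSO 3 (−1.20) and with the length trend removed (−0.75). Neither DESeq2 (−1.20) nor limma (−0.65 on the log2(FPKM + 1) scale) called it. In CDWIN it stood at −1.0 ± 0.45 (edgeR adjusted p = 0.0788) and was called without DMSO 2 (−1.29). CQSUM gave −0.50 ± 0.44 and CQWIN −0.01 ± 0.43, an SE that spans a change of either sign.

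NEAT1, the longest of the 9, passed the threshold in none of the 4 comparisons with DMSO. It had 65.6, 70.6 and 85.6 CPM in CDSUM, 81.0, 42.6 and 78.3 CPM in CDWIN, 97.7, 73.4 and 103 CPM in CQSUM, 69.3, 73.4 and 157 CPM in CQWIN, and 112, 76.1 and 132 CPM in DMSO. DMSO 2 was within the range of each PM2.5 group, so every group overlapped DMSO. The log2 fold changes were −0.53 ± 0.29 in CDSUM, −0.67 ± 0.29 in CDWIN, −0.23 ± 0.29 in CQSUM and −0.10 ± 0.29 in CQWIN (edgeR adjusted p = 0.137, 0.071, 0.583 and 0.834 in that order). NEAT1 in CDWIN was called without DMSO 2 (−0.86), and also with the replicate number as a block (−0.67). With the length trend removed the CDSUM value turned to 0.31.

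GAS5, named for its build-up in growth-arrested cells, rose in every PM2.5 group. It had 152, 152 and 158 CPM in CDSUM, 169, 149 and 171 CPM in CDWIN, 124, 160.0 and 126 CPM in CQSUM, 155, 114 and 90.4 CPM in CQWIN, and 83.3, 86.6 and 82.9 CPM in DMSO. All 12 PM2.5 libraries were above all 3 DMSO libraries, which holds for 7.07% of tested genes and for no other of the 9, and the nearest was CQWIN 3. The rise was 1.83-fold in CDSUM (0.87 ± 0.17, edgeR adjusted p = 0.000821), 1.93-fold in CDWIN (0.95 ± 0.17, edgeR adjusted p = 0.000516), 1.62-fold in CQSUM (0.69 ± 0.17, edgeR adjusted p = 0.00479) and 1.42-fold in CQWIN (0.51 ± 0.17, edgeR adjusted p = 0.0297). GAS5 was the only one of the 9 called higher in all 4 comparisons, as were 5.93% of tested genes. The CQWIN call rested on single libraries: it was lost without CQWIN 1 (0.28), DMSO 1 (0.50), DMSO 2 (0.53) or DMSO 3 (0.50), and without CQWIN 3 the value was 0.86. With GC and length trends removed, CDSUM (0.97) and CDWIN (0.67) were still called and CQSUM (0.35) and CQWIN (0.17) were not.

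ZFAS1, transcribed next to and partly across ZNFX1, had the largest rise of the 9 in each of the 4 comparisons with DMSO. It had 57.9, 59.7 and 62.0 CPM in CDSUM, 53.1, 62.0 and 60.6 CPM in CDWIN, 37.3, 55.1 and 39.5 CPM in CQSUM, 52.4, 34.8 and 24.9 CPM in CQWIN, and 25.3, 27.3 and 23.9 CPM in DMSO. CQWIN 3 fell inside the DMSO range and every other PM2.5 library lay above it. ZFAS1 was 2.35-fold higher in CDSUM (1.23 ± 0.21, edgeR adjusted p = 0.000433), 2.30-fold higher in CDWIN (1.20 ± 0.21, edgeR adjusted p = 0.000495) and 1.72-fold higher in CQSUM (0.79 ± 0.21, edgeR adjusted p = 0.0085). CQWIN gave 0.55 ± 0.21 (edgeR adjusted p = 0.0559). The CQSUM call was lost without CQSUM 2 (0.59), and CQWIN was called without CQWIN 2 (0.74) or CQWIN 3 (0.95). ZFAS1 with both the GC and the length trend removed was called in all 4 comparisons, at 1.14, 1.26, 0.91 and 0.70 in CDSUM, CDWIN, CQSUM and CQWIN. Without strand information a part of this signal could come from ZNFX1, and that was not tested.

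SNHG8, host of SNORA24, had 62.9, 69.9 and 63.2 CPM in CDSUM, 56.8, 58.9 and 57.8 CPM in CDWIN, 38.4, 59.0 and 43.7 CPM in CQSUM, 62.5, 39.1 and 25.2 CPM in CQWIN, and 28.5, 32.5 and 28.9 CPM in DMSO. Again CQWIN 3 alone did not exceed the DMSO libraries. SNHG8 was 2.18-fold higher in CDSUM (1.12 ± 0.23, edgeR adjusted p = 0.0012), 1.93-fold higher in CDWIN (0.95 ± 0.23, edgeR adjusted p = 0.00344) and 1.57-fold higher in CQSUM (0.65 ± 0.23, edgeR adjusted p = 0.0374). CQWIN gave 0.49 ± 0.23 (edgeR adjusted p = 0.116). The CQSUM call was lost without CQSUM 2 (0.46), CQSUM 3 (0.70), DMSO 1 (0.61), DMSO 2 (0.72) or DMSO 3 (0.62), and CQWIN was called without CQWIN 3 (0.94). Without the GC and length trends the values were 0.58 in CDSUM and 0.45 in CDWIN, both called, and 0.26 in CQSUM and 0.13 in CQWIN, neither called.

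SNHG15, host of SNORA9, rose in the CD groups. It had 56.2, 54.7 and 51.2 CPM in CDSUM, 44.6, 52.5 and 52.0 CPM in CDWIN, 36.3, 51.3 and 41.8 CPM in CQSUM, 35.4, 37.4 and 27.7 CPM in CQWIN, and 37.5, 40.3 and 36.0 CPM in DMSO. The CDSUM and CDWIN libraries were all above DMSO, and the CQSUM and CQWIN libraries overlapped it. SNHG15 was 1.42-fold higher in CDSUM (0.51 ± 0.15, edgeR adjusted p = 0.0117) and 1.31-fold higher in CDWIN (0.39 ± 0.15, edgeR adjusted p = 0.0486). CDWIN lost its call without CDWIN 2 (0.35), CDWIN 3 (0.36), DMSO 1 (0.38), DMSO 2 (0.44) or DMSO 3 (0.35). CQSUM gave 0.18 ± 0.15 and CQWIN −0.18 ± 0.15, neither called.

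SNHG1, which holds 7 annotated snoRNA genes, was called in CDSUM and in no other comparison with DMSO. It had 40.3, 43.2 and 36.3 CPM in CDSUM, 43.9, 46.5 and 55.9 CPM in CDWIN, 46.7, 49.8 and 45.5 CPM in CQSUM, 39.2, 51.5 and 42.5 CPM in CQWIN, and 55.1, 46.1 and 56.7 CPM in DMSO. CDSUM lay below DMSO without overlap, and the other groups overlapped it. The CDSUM change of −0.40 ± 0.15 was called (edgeR adjusted p = 0.0337), but it was not with the size factors of DESeq2 (−0.24), a scaling that moved the median of all genes in this comparison to −0.10, against −0.25 with TMM. It was also lost without CDSUM 1 (−0.40), CDSUM 3 (−0.33), DMSO 1 (−0.36) or DMSO 3 (−0.34), with DESeq2 (−0.24) or limma (−0.23), with no filter (−0.18), with the compared groups only (−0.17), and with the length trend (−0.23) or both trends (−0.32) removed. The values were −0.11 ± 0.15 in CDWIN, −0.15 ± 0.15 in CQSUM and −0.24 ± 0.15 in CQWIN, none called, whereas with GC and length trends removed CQSUM (−0.45) and CQWIN (−0.53) were.

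SNHG12, which overlaps 5 annotated snoRNA genes, passed the threshold nowhere. It had 11.1, 12 and 9.61 CPM in CDSUM, 11.8, 9.31 and 12.6 CPM in CDWIN, 10.5, 13.0 and 11.4 CPM in CQSUM, 7.79, 12 and 11.6 CPM in CQWIN, and 14.4, 12 and 15.9 CPM in DMSO. CQWIN lay below DMSO without overlap, though by less than the rounding of its highest value, and the other groups overlapped DMSO. The PM2.5 means were all below the DMSO mean of 14.1 ± 1.95 CPM, between 10.5 ± 2.32 CPM in CQWIN and 11.6 ± 1.23 CPM in CQSUM. Its log2 fold changes were −0.37 ± 0.20 in CDSUM, −0.33 ± 0.20 in CDWIN, −0.28 ± 0.20 in CQSUM and −0.43 ± 0.20 in CQWIN. Removing the GC and length trends put them between −0.09 and 0.10.

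**Figure D2:**
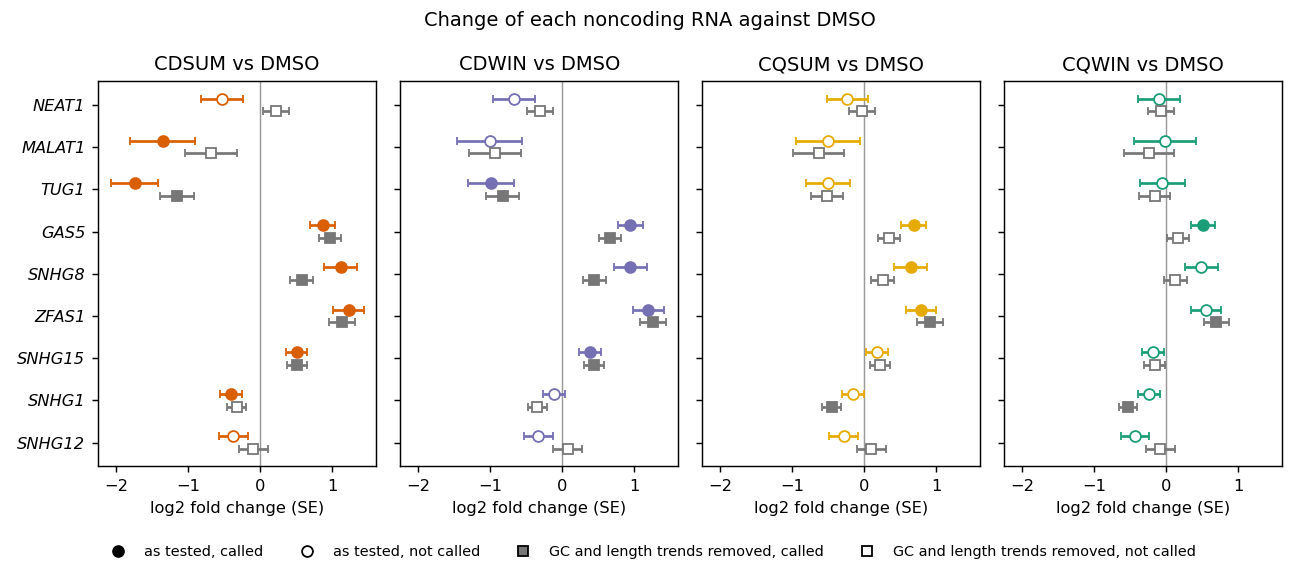
log2 fold change against DMSO (x axis, with SE) of each noncoding RNA (y axis) in 4 panels, 1 per PM2.5 group; circles are values as tested and grey squares values with the GC and length trends of each library removed, filled where the adjusted p was under 0.05. GAS5, SNHG8 and ZFAS1 lie right of 0 in every panel, and TUG1 lies at −1.74 in CDSUM and −0.05 in CQWIN.

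Counted over the 9, 4 rose and 3 fell in CDSUM, where 46.5% of all 15565 tested genes were called, 15.3% higher and 31.2% lower. In CDWIN 4 rose and 1 fell, against 41.7% of all genes called, 18.4% higher and 23.3% lower. CQSUM had 3 higher and none lower, against 32.5% called, 13.7% higher and 18.8% lower. CQWIN had 1 higher and none lower, against 27.4% called, 11.6% higher and 15.8% lower. All 3 libraries lay above those of DMSO for 4 of the 9 in CDSUM and in CDWIN, 3 in CQSUM and 1 in CQWIN, against 21.3%, 22.9%, 23.7% and 16.7% of all genes. All 3 lay below DMSO for 3 of the 9 in CDSUM, 1 in CDWIN, none in CQSUM and 1, SNHG12, in CQWIN, against 40.5%, 29.7%, 28.1% and 22.1% of all genes. None of the 9 was called lower in all 4 comparisons, as were 11.7% of all genes, or had all 12 PM2.5 libraries below DMSO, as had 15.6%. The 4 comparisons share the DMSO libraries, so they are not independent of each other. In CDSUM the 4 higher calls held in number under every alternative run, while the 3 lower became 1, TUG1, without CDSUM 1, DMSO 1 or DMSO 3, with DESeq2 or limma and with the length trend or both trends removed. The lower calls were 2 with the size factors of DESeq2, with no filter, with the compared groups only and without CDSUM 2 or CDSUM 3. The CQWIN count was 3 without CQWIN 3, 2 without CQWIN 2, and 0 without CQWIN 1, DMSO 1, DMSO 2 or DMSO 3. Without CQSUM 2 the CQSUM count was 1, and without CDWIN 2, DMSO 1 or DMSO 3 the CDWIN count was 3. The 1 lower call in CDWIN became 3 with no filter, with the compared groups only or without DMSO 2. It became 2 with a replicate block, and 0 without CDWIN 2, DMSO 1 or DMSO 3. Of all genes, 3265 were lower with no filter and 3319 with the compared groups only, against 3624 as tested.

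In the authors' deposited table, at an adjusted p under 0.05, 4 of the 9 were higher and 2 lower in CDSUM, 4 higher and 3 lower in CDWIN, 3 higher and none lower in CQSUM, and none in CQWIN. The share of all genes called there was not taken, so counts from that table have no background here. The authors' deposited table has NEAT1 lower in CDWIN, at −0.60 with an adjusted p of 0.0303, and MALAT1 at −0.93 with 0.00737. GAS5 in CQWIN stands at 0.55 with an adjusted p of 0.0828 in the authors' deposited table. Between PM2.5 groups, the authors' deposited table has SNHG8, ZFAS1 and SNHG15 higher and TUG1 and MALAT1 lower in CDSUM against CQSUM. It has TUG1 higher in CDWIN against CDSUM, at 0.69 with an adjusted p of 0.0398. In CDWIN against CQWIN and CQWIN against CQSUM it has none of the 9.

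Comparisons between PM2.5 groups asked whether the codes differed from each other. CDSUM against CQSUM had 1 of the 9 called, with 13.9% of all genes called, 0.167% higher and 13.7% lower. It was TUG1, 2.36-fold lower in CDSUM (−1.24 ± 0.33, edgeR adjusted p = 0.0129), at 6.63 ± 0.328 CPM in CDSUM and 15.6 ± 5.79 CPM in CQSUM (SD, n = 3 each), with no overlap between the groups. The TUG1 call was lost without CDSUM 1 (−1.21), CDSUM 2 (−1.22), CQSUM 1 (−1.05) or CQSUM 3 (−1.10) and with GC and length trends removed (−0.64), a fit in which GAS5 was called higher (0.62) and 9.37% of all genes were called.

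CDWIN against CQWIN had none of the 9 called by edgeR or DESeq2, with 0.0128% of all genes called by edgeR. An unadjusted p under 0.05 was reached by 5 of the 9. The share of all genes under that unadjusted p was not taken, here or in the comparisons below. SNHG15 differed most by p-value, at 49.7 ± 4.43 CPM in CDWIN and 33.5 ± 5.11 CPM in CQWIN (0.57 ± 0.15, unadjusted p = 0.00157, edgeR adjusted p = 0.26), and its groups did not overlap. ZFAS1 followed, at 58.5 ± 4.79 CPM in CDWIN and 37.4 ± 13.9 CPM in CQWIN (0.65 ± 0.21, edgeR adjusted p = 0.26). Without CQWIN 1, 6 of the 9 were called, 4 higher and 2 lower in CDWIN. In that run 1885 of all genes were called, 1070 higher and 815 lower.

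No gene of the 9 was called by edgeR, DESeq2 or limma over all 5 groups in CDWIN against CDSUM. There edgeR called 8.42% of all genes, and 1 of the 9 had an unadjusted p under 0.05. That gene was TUG1, at 11.1 ± 2.48 CPM in CDWIN and 6.63 ± 0.328 CPM in CDSUM (0.75 ± 0.33, edgeR adjusted p = 0.214). In CQWIN against CQSUM none was called by the same tools either, with 0.0193% of all genes called and 1 of the 9 at an unadjusted p under 0.05. SNHG15 was that gene, at 33.5 ± 5.11 CPM in CQWIN and 43.1 ± 7.59 CPM in CQSUM (−0.36 ± 0.15, edgeR adjusted p = 0.994). The interaction, which asks whether CDWIN differed from CDSUM as CQWIN did from CQSUM (log2 CDWIN/CDSUM minus log2 CQWIN/CQSUM), was called for 2.02% of genes by edgeR. For the 9 it was called by none of the 3 tools and reached an unadjusted p under 0.05 for 0 of them, with values between −0.26 ± 0.41 for NEAT1 and 0.38 ± 0.21 for SNHG1.

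The longest 3 of the 9 RNAs had negative values in all 4 comparisons with DMSO (MALAT1 and TUG1 in CQWIN were 0.05 and 0.01 with the size factors of DESeq2) and the shortest 2 positive ones, and the medians over all genes also ran with gene length. In CDSUM the median log2 fold change was 0.52 for the 1042 genes under 1000 bases, 0.35 for 1000 to under 2000 bases, −0.03 for 2000 to under 4000, −0.40 for 4000 to under 8000 and −0.70 for the 2954 genes of 8000 bases and over. The same medians were 0.58, 0.37, 0.02, −0.22 and −0.42 in CDWIN, 0.39, 0.24, 0.03, −0.08 and −0.17 in CQSUM, and 0.28, 0.14, 0.00, −0.02 and −0.04 in CQWIN. Against its own length class, SNHG8 at 1.12 in CDSUM stood above 0.52, while GAS5 at 0.87, ZFAS1 at 1.23 and SNHG15 at 0.51 stood above −0.03. SNHG1 at −0.40 stood below −0.03 in that class. In the longest class TUG1 at −1.74 and MALAT1 at −1.35 were below −0.70, and NEAT1 at −0.53 was above it.

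**Figure D3:**
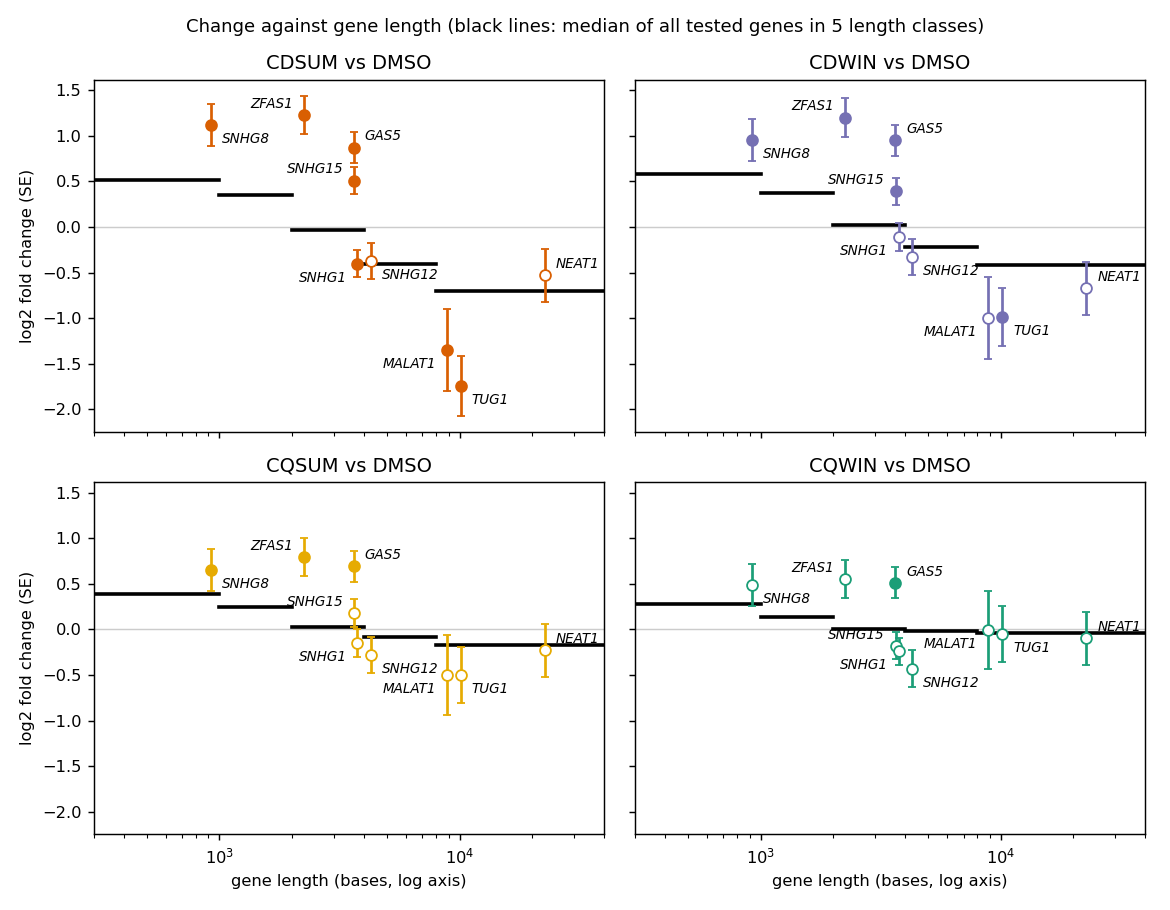
log2 fold change against DMSO (y axis, with SE) of the 9 noncoding RNAs against gene length in bases (log x axis) in 4 panels, 1 per PM2.5 group; filled points had an adjusted p under 0.05, and black lines are the medians of all tested genes in 5 length classes. In CDSUM the black lines step down to −0.70 in the longest class, with TUG1 and MALAT1 below them and GAS5, SNHG8 and ZFAS1 above.

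Across the 15 libraries the log2 level of TUG1 followed the length slope with Pearson's r = 0.979, MALAT1 with 0.932 and NEAT1 with 0.807, while SNHG8 was at −0.961, ZFAS1 at −0.933, GAS5 at −0.857 and SNHG15 at −0.852. SNHG1 and SNHG12 were at 0.526 and 0.515. These correlations are descriptions: each gene is part of the libraries from which the slope is taken, and the libraries differ by group. CQWIN 3, with the highest slope of 0.193, had the highest MALAT1, TUG1 and NEAT1 of all 15 libraries and the lowest SNHG8 and SNHG15. Since all CDSUM and CDWIN slopes were negative and all DMSO slopes positive, the slope and the exposure cannot be told apart in either comparison with DMSO. After both trends were removed 4 of the 9 rose and 1 fell in CDSUM, where 38.0% of all genes were called, 20.6% higher and 17.3% lower. CDWIN again had 4 higher and 1 lower, with 32.1% of all genes called, 18.1% higher and 14.0% lower. In CQSUM ZFAS1 rose and SNHG1 fell, with 18.5% of all genes called, 9.56% higher and 8.99% lower. The same 2 were called in CQWIN, with 15.4% of all genes called, 8.07% higher and 7.33% lower.

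**Figure D4:**
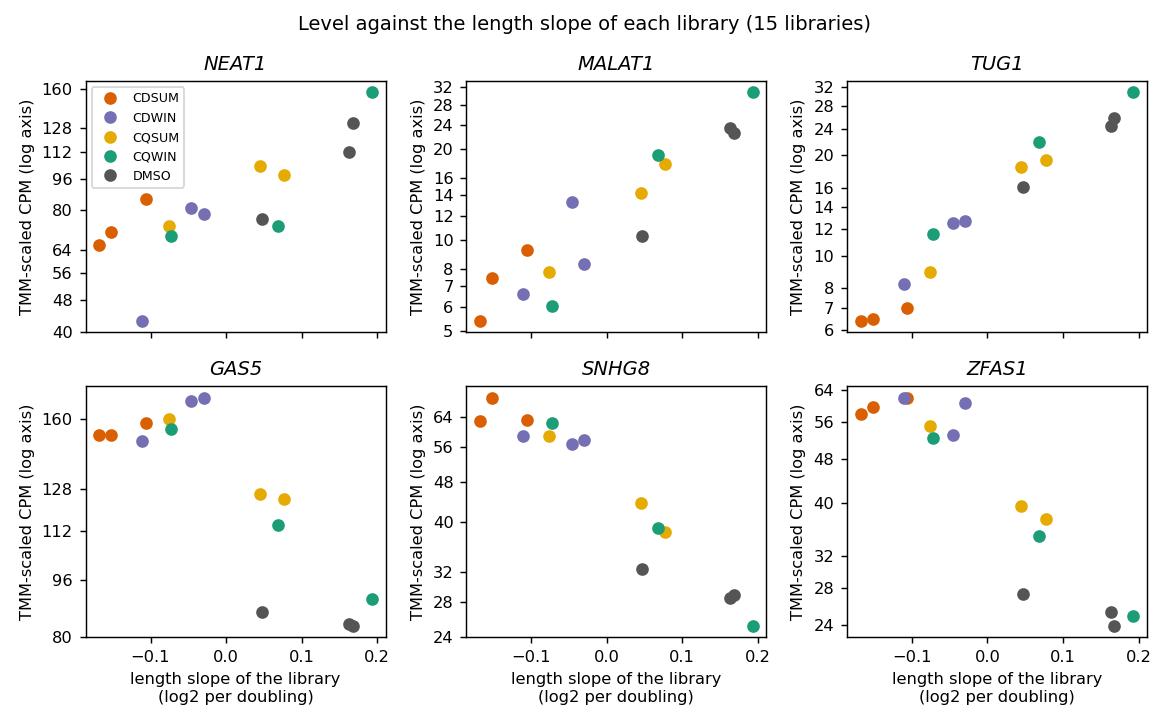
TMM-scaled CPM (log y axis) of 6 of the noncoding RNAs against the length slope of the library (x axis, log2 per doubling of gene length); points are the 15 libraries, coloured by group. NEAT1, MALAT1 and TUG1 rise with the slope and GAS5, SNHG8 and ZFAS1 fall, with CQWIN 3 beside the DMSO libraries at 0.193.

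Genes that work with these RNAs were read from lists, against 15.3% of all genes called higher and 31.2% lower in CDSUM and 18.4% and 23.3% in CDWIN. The same shares were 13.7% and 18.8% in CQSUM and 11.6% and 15.8% in CQWIN. Like the 9 genes, the lists were chosen with earlier results of these data known. Of 19 other noncoding snoRNA hosts tested, 8 rose and 2 fell in CDSUM (median 0.27, against −0.25 for all genes), and 9 rose and 4 fell in CDWIN (median 0.34, against −0.11). LRRC75A-AS1 (1.19 ± 0.21), SNHG6 (1.24 ± 0.22) and EPB41L4A-AS1 (1.07 ± 0.24) had the smallest adjusted p in CDSUM. The 2 lower in CDSUM became 3 without CDSUM 1 and 1 without CDSUM 3 or DMSO 1, and the 4 lower in CDWIN became 2 without CDWIN 1. CQSUM had 4 higher and 3 lower, or 1 and 2 without CQSUM 2, 2 and 2 without DMSO 1, and 4 and 1 without CQSUM 3 or DMSO 2. CQWIN had 3 and 4, or 9 and 4 without CQWIN 3, 5 and 3 without CQWIN 2, and none higher without CQWIN 1, DMSO 1 or DMSO 3. The 21 protein-coding hosts, mostly ribosomal protein and translation factor genes, had 14 higher and 2 lower in CDSUM (median 0.81) and 15 and 1 in CDWIN (median 0.79). TPT1 (1.41 ± 0.23), RPS12 (1.23 ± 0.25) and EEF1B2, a translation elongation factor subunit (1.03 ± 0.21), led in CDSUM. These medians were 0.65 and 0.74 with GC and length trends removed. In CQSUM 8 rose and 2 fell, or 3 rose without CQSUM 2, DMSO 1 or DMSO 3 and 5 without CQSUM 3. In CQWIN 3 rose and 1 fell, or 16 rose without CQWIN 3 and 5 without CQWIN 2. Of all genes 1804 rose in CQWIN as tested, 3866 without CQWIN 3 and 2204 without CQWIN 2. In CQSUM 2136 of all genes rose as tested and 1118 without CQSUM 2.

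Of the 16 snoRNP proteins and assembly factors, 5 rose and 4 fell in CDSUM (median −0.13, and 0.02 with the size factors of DESeq2, against −0.25 and −0.10 for all genes), with 15.3% of all genes higher and 31.2% lower. Without CDSUM 1, CDSUM 2 or DMSO 3 the count was 3 higher and 3 lower. In CDWIN 3 rose and 1 fell, or 3 and 2 without CDWIN 2. NOP58, a core protein of box C/D snoRNPs, was 4.03-fold lower in CDSUM (−2.01 ± 0.30) and the assembly factor ZNHIT6 3.24-fold lower (−1.70 ± 0.29), whereas NOP10, a box H/ACA protein, was 2.60-fold higher (1.38 ± 0.24). Of 18 nonsense-mediated decay factors 3 rose and 10 fell in CDSUM (median −0.60, against −0.25 for all genes, of which 31.2% fell) and 3 rose and 8 fell in CDWIN (median −0.57, against −0.11 for all genes, of which 23.3% fell). UPF1, the helicase at the centre of that pathway, was 2.29-fold lower in CDSUM (−1.20 ± 0.20) and the kinase SMG1 3.96-fold lower (−1.99 ± 0.37), while the exon junction protein MAGOH was 2.51-fold higher (1.33 ± 0.21). The medians of the decay factors with both trends removed were −0.19 in CDSUM and −0.30 in CDWIN, with 4 higher and 5 lower and 2 higher and 3 lower.

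Of 17 paraspeckle proteins 1 rose and 10 fell in CDSUM (median −0.50, against −0.25 for all genes, of which 31.2% fell), with none higher and 10 lower in CDWIN (median −0.42, against −0.11 for all genes, of which 23.3% fell). SFPQ, which binds NEAT1, was 2.10-fold lower in CDSUM (−1.07 ± 0.16), at 112 ± 3.61 CPM in CDSUM and 236 ± 9.90 CPM in DMSO. UBAP2L (−1.06 ± 0.17) and RBM14 (−1.27 ± 0.21) came next. With GC and length trends removed 3 rose and 5 fell in CDSUM (median 0.02) and none rose and 5 fell in CDWIN (median −0.06). Of 18 nuclear speckle proteins 1 rose and 12 fell in CDSUM (median −0.75, or −0.45 with the trends removed), with 31.2% of all genes lower. In CDWIN 2 rose and 8 fell, with 23.3% of all genes lower, and the median was −0.06, or 0.01 with the size factors of DESeq2 and −0.21 with the trends removed. Without CDWIN 2, 4 rose and 7 fell in CDWIN (median 0.11). The splicing factor SF3B1 was 4.57-fold lower in CDSUM (−2.19 ± 0.32), PNN 5.36-fold lower (−2.42 ± 0.44) and PRPF8 2.42-fold lower (−1.27 ± 0.23). The paraspeckle list had 9 lower in CQSUM and 7 lower in CQWIN with none higher in either, against 18.8% and 15.8% of all genes lower. It had 5 lower in CQSUM without CQSUM 2 or DMSO 1 and 3 lower in CQWIN without CQWIN 2.

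Of 24 other long noncoding RNAs listed, 20 were tested, and 7 rose and 2 fell in CDSUM (median 0.24, against −0.25 for all genes, of which 15.3% rose and 31.2% fell). In CDWIN 6 rose and 2 fell (median 0.16, against −0.11 for all genes, of which 18.4% rose and 23.3% fell). The CDSUM count was 4 higher and 1 lower without CDSUM 1 or DMSO 3, and the CDWIN count was 4 and none without DMSO 1 and 4 and 1 without CDWIN 3. LUCAT1, a stress-induced RNA, was 2.18-fold higher in CDSUM (1.12 ± 0.23), at 30.1 ± 7.0 CPM in CDSUM and 13.8 ± 1.24 CPM in DMSO. MIR31HG was 1.93-fold higher in CDSUM (0.95 ± 0.21). H19 was called lower in CDSUM at levels near the detection limit, 0.0544 ± 0.0544 CPM in CDSUM and 1.14 ± 0.573 CPM in DMSO. In CQSUM and CQWIN, where 13.7% and 11.6% of all genes rose and 18.8% and 15.8% fell, counts of these last lists also moved with single libraries. The decay factors had 1 higher and 7 lower in CQSUM and 1 and 6 in CQWIN, where leaving out CQWIN 3 gave 6 and 6 and leaving out CQWIN 2 gave 2 and 2. The speckle proteins had 3 higher and 7 lower in CQSUM, or none and 4 without CQSUM 2, and 1 and 5 in CQWIN, or 5 and 6 without CQWIN 3 and none and 2 without CQWIN 2. The snoRNP list had 2 higher and 1 lower in CQSUM and 2 and 2 in CQWIN, or 5 and 1 without CQWIN 3 and none without CQWIN 1. The other long noncoding RNAs had 4 higher and 1 lower in CQSUM, or 1 and none without CQSUM 2 or DMSO 1, and 4 higher in CQWIN, or 7 and 1 without CQWIN 3 and 2 without CQWIN 1. LUCAT1 is 16538 bases long, so its rise ran against the length medians above.

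The levels of the 9 fell into sets over the 15 libraries. SNHG8 and ZFAS1 correlated at r = 0.979, GAS5 and ZFAS1 at 0.97 and GAS5 and SNHG8 at 0.946, and MALAT1 and TUG1 at 0.906. TUG1 and GAS5 were at −0.791, and at −0.971 with GC and length trends removed. NEAT1 and MALAT1 were at 0.828, and at 0.429 with the trends removed. Among all tested genes the pattern most like that of TUG1 was in MYCBP2 and NUFIP2 (both r = 0.986), that of MALAT1 in TRIM33 (0.962) and NFAT5 (0.948), and that of NEAT1 in RMND5A (0.928) and TNFRSF10B (0.926). GAS5 was nearest to NSMCE2 (0.989) and IAH1 (0.984), SNHG8 to MRPS23 (0.993) and DAD1 (0.992), and ZFAS1 to TXN (0.99) and the processed pseudogene RPL7P9 (0.989), whose reads can be shared with its parent gene. SNHG15 was nearest to CCK (0.956) and FAM216A (0.941), SNHG1 to NOP56 (0.875) and CDCA2 (0.865), and SNHG12 to SNHG4 (0.882) and TAF5L (0.874). With the trends removed SNHG1 and NOP56, itself a snoRNP protein gene, were at 0.276 and SNHG12 and SNHG4 at 0.397, whereas SNHG8 and DAD1 were at 0.974. These likenesses are over libraries of 5 groups and share library, depth and group.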

How the data were processed

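RNA sequencing of 15 A549 libraries in 5 groups of 3 was used through the deposited table of 58735 genes. It holds raw counts per gene, FPKM values made by the authors, and the authors' deposited log2 fold changes and p-values, per the file headers. Aligner, counter and strand setting: not given in the sources used here. Mouse genome builds and a pair of library kits are named in the labels, but all 58735 identifiers are human and match GENCODE 29 in start and end, so coordinates are on GRCh38. The labels do not say whether libraries came from separate cultures, so p-values measure the spread between these libraries, which may be technical.

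Counts were tested with the quasi-likelihood test of edgeR 4.0.16 (R 4.3.3), after filterByExpr and TMM scaling, in a model with 1 mean for each group, which leaves 10 residual degrees of freedom. This left 15565 of 29725 genes with at least 1 read, and the genes removed held 0.0838% of reads. The common biological coefficient of variation was 20.5%. Calls are Benjamini-Hochberg adjusted p under 0.05 over all tested genes. An error beside a level is an SD. One beside a log2 fold change is an SE, got by dividing the size of the change by the square root of its F statistic. Trends were removed with natural splines of 6 degrees of freedom per library in GC and length of 15558 genes. DESeq2 1.42.0 and limma 3.58.1 on log2(FPKM + 1) were alternatives. The fit was tested on simulated data.

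The genes named beside the 9 were chosen by rule: up to 3 called genes of each list with the smallest adjusted p in CDSUM, and the 2 most correlated genes of each of the 9 (log2 CPM, prior count 2). The 9 genes and the lists were chosen with earlier results of these data known. Within-group pairs of libraries differed by 5.45 to 129 times the counting noise (chi-square per degree of freedom). That is more than a second reading of the same library would give. It cannot tell separate cultures from repeat libraries of the same culture. Promoter windows came from RefSeq (GRCh38.p14), and those of NEAT1 and SNHG15 were not used here. Same-numbered libraries deviated together in all 3 pairs of CQSUM with DMSO (correlations 0.191, 0.395 and 0.115, each over 0.1), a pairing taken from the data and not from the labels, and not in every pair of any other comparison.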

Additional observations from a re-analysis of the deposited data

How the results depend on the processing

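Over 37 log2 fold changes of the 9 genes, 407 alternative values were counted. Of the runs that left out a library, only the lowest and the highest value of each change entered this count. In it 346 values kept their direction and their side of the threshold, 27 lost a call, 17 gained one and 17 changed sign. Calls lost in the other runs without a library are not in it, and the cause was not tested. Sign changes were all in values not called. With the length trend removed NEAT1 was 0.31 in CDSUM, 0.04 in CQSUM and 0.02 in CQWIN, MALAT1 0.03 and TUG1 0.02 in CQWIN; with GC and length trends removed NEAT1 was 0.22 in CDSUM and SNHG12 0.08 in CDWIN and 0.10 in CQSUM. In CQWIN, MALAT1 was 0.05 and TUG1 0.01 with DESeq2 size factors, and 0.04 and 0.01 with DESeq2. Leaving out a library in CQWIN gave −0.40 to 0.21 for NEAT1, −0.37 to 0.40 for MALAT1, −0.23 to 0.25 for TUG1 and −0.22 to 0.13 for SNHG15. Same-numbered libraries correlated from −0.414 to 0.395 in their deviations from group means, over 0.1 in 11 of 30 pairs. In CQSUM against DMSO all 3 pairs were over 0.1, and in no other comparison were they. Some others were positive throughout, such as CDWIN with DMSO (0.044, 0.288 and 0.147), so a shared origin there was neither shown nor excluded. With a replicate block no call of the 9 changed in CQSUM against DMSO; elsewhere MALAT1 in CQWIN was 0.02, NEAT1 in CDWIN was called (−0.67), and over all genes 4 were called in CDWIN against CQWIN, none of them among the 9.

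Of the 9, the number called in CQWIN against DMSO (1 as tested) was 2 with DESeq2 size factors, with DESeq2, with a filter of 5 CPM in 3 libraries and with either trend removal, 3 with no filter and 0 with the compared groups only, and 0 to 3 leaving out a library. Leaving out a library gave 5 to 7 in CDSUM, 3 to 6 in CDWIN, 1 to 3 in CQSUM, 0 to 1 in CDSUM against CQSUM and 0 to 6 in CDWIN against CQWIN. CDWIN against CDSUM had 1 with the compared groups only. CDSUM against CQSUM had 4 with no filter, 3 with the compared groups only and 0 with limma, and CDWIN against CQWIN had 3 with no filter.

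Over all genes, removing GC and length trends gave 2886 calls in CQSUM, 2395 in CQWIN, 586 in CDWIN against CDSUM, 6 in CQWIN against CQSUM, 7 in CDWIN against CQWIN and 84 for the interaction. The compared groups only gave 2249 in CQWIN, 0 in CQWIN against CQSUM and in CDWIN against CQWIN, and 48 for the interaction (PM2.5 groups only). No filter gave 42 in CQWIN against CQSUM, 522 in CDWIN against CQWIN and 569 for the interaction. DESeq2 gave 11, 42 and 544 for these, its size factors 1 in each of the first pair, and limma 577 in CDWIN against CDSUM, 1412 in CDSUM against CQSUM, 7 in CDWIN against CQWIN and 0 for the interaction. Leaving out a library gave 3049 to 4520 in CQSUM, 2511 to 6102 in CQWIN, 554 to 1866 in CDWIN against CDSUM, 0 to 11 in CQWIN against CQSUM, 0 to 1885 in CDWIN against CQWIN and 0 to 883 for the interaction. The 21 list genes named in CDSUM kept direction and call under all 313 alternatives run for them. MALAT1, with 90 to 644 reads per library, had an SE of 0.43 to 0.45 against DMSO, so small changes of it were not detectable with 3 libraries a group.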
